A study of Mus musculus with 6 samples.

Results

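The Krüppel-like factors (KLFs) described here are 10 genes, Klf2, Klf3, Klf4, Klf5, Klf6, Klf7, Klf9, Klf10, Klf13 and Klf16, chosen by gene symbol from 22105 genes measured in mouse 4T1 cells. 4T1 is a mammary carcinoma cell line. It was given phosphate-buffered saline (PBS, 3 libraries) or CM-PEG-PLGA@DOX/R848 nanoparticles (3 libraries) and harvested after 24 h. The particles were dosed by their doxorubicin (DOX) content, as 2 µg/mL of DOX (a topoisomerase II poison), and also carried R848 (resiquimod), an agonist of the RNA receptors TLR7 and TLR8. Cells given either drug alone or unloaded particles are not analysed here, so the parts of DOX, R848 and the carrier cannot be told apart.

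KLFs are transcription factors that bind GC-rich and CACCC-containing DNA through zinc fingers at their carboxyl end, as do the related SP factors. Their amino ends differ and define subgroups: KLF2, KLF4, KLF5, KLF6 and KLF7 are mostly activators that recruit acetyltransferases, KLF3 binds the corepressor CtBP, and KLF9, KLF10, KLF13 and KLF16 bind the corepressor SIN3A. Several KLF genes are induced within minutes to hours by growth factors, cytokines and stress, and in epithelia KLF4 is linked to cell cycle arrest and KLF5 to proliferation.

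The family split evenly. Klf4, Klf6, Klf5, Klf10 and Klf16 were higher with nanoparticles, and Klf13, Klf9, Klf7, Klf3 and Klf2 were lower. Klf4 had the largest rise, 5.64-fold, and Klf13 the largest fall, 1.94-fold. All 10 passed limma at an adjusted p under 0.05, against 86.4% of the 10863 tested genes in either direction, 40.5% higher and 46% lower. The 2 groups of libraries did not overlap for any of the 10 genes, and 87.2% of tested genes shared that property. A call alone therefore sets no KLF gene apart from the background. Of the 5 that rose, 4 had a log2 fold change of at least 1, a size reached in that direction by 10.2% of tested genes, and none of the 5 that fell reached -1, a size reached by 13.5%. The median log2 fold change of the 10 genes was 0.24, and that of all tested genes was -0.058. In bulk RNA, fewer cells with a transcript and less transcript per cell cannot be told apart.

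**Figure D1:**
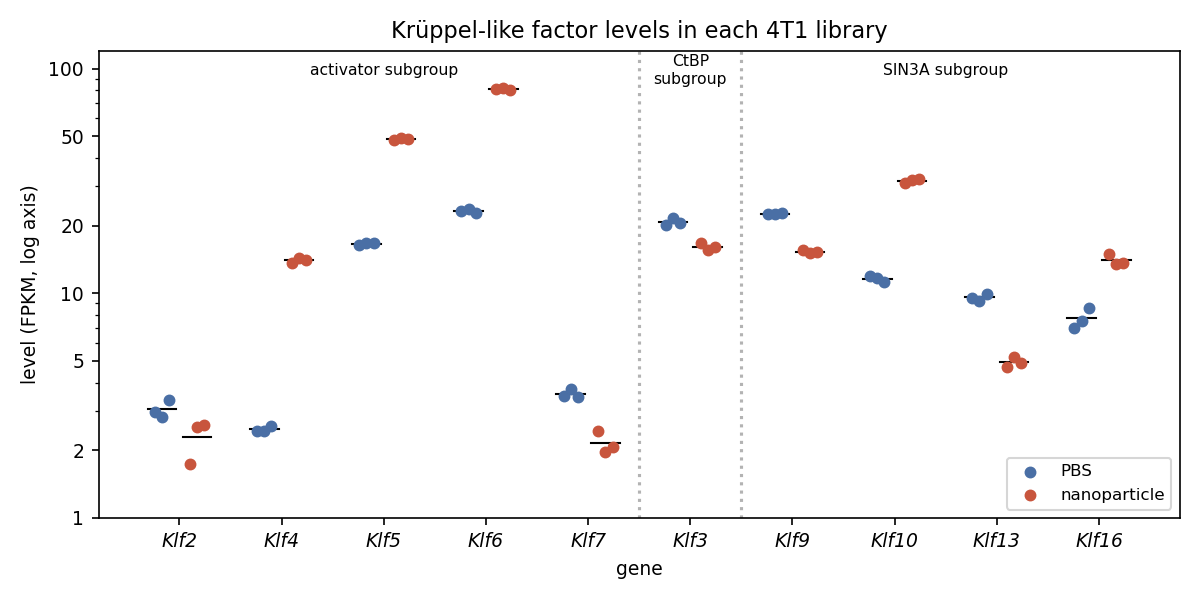
Level of each KLF gene (FPKM, log axis) in the 3 PBS and 3 nanoparticle libraries, with the mean as a black line, ordered by subgroup. The nanoparticle points of Klf4, Klf5, Klf6, Klf10 and Klf16 lie above all PBS points of the gene, and those of Klf2, Klf7, Klf3, Klf9 and Klf13 lie below them.

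The values are FPKM, fragments scaled by transcript length and library size, a unit inferred from the numbers, so the depth per library is unknown. Genes at 1 FPKM or more numbered 10596 to 10631 per library, whereas genes above 0 numbered 13544 to 13808 with PBS and 18319 to 18509 with nanoparticles. Pearson's r of log2(FPKM + 1) across tested genes, which are not independent replicates, lay between 0.996 and 0.997 for libraries of 1 group and between 0.862 and 0.865 for libraries of different groups. The epithelial identity of the line was checked on 10 markers: Krt8 (212 to 216 FPKM with PBS), Krt18 (510 to 521 FPKM) and Cdh1 (18 to 20.1 FPKM) were present, but Epcam, Cldn7 and Esrp1 stayed under 1 FPKM in every library.

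Klf4, a factor of epithelial differentiation and of reprogramming to pluripotency, stood at 2.45, 2.44 and 2.56 FPKM in the PBS libraries and at 13.6, 14.4 and 14 FPKM in the nanoparticle libraries. All 3 nanoparticle libraries were several-fold above the highest PBS library. On the log2(FPKM + 1) scale the fold change was 2.11 (standard error 0.05, adjusted p = 3.32e-10, limma), which is higher than 98.4% of tested genes. With PBS it was the lowest of the 10 genes, and with nanoparticles it was sixth, level with Klf16, whose range it overlapped.

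Klf6, an early response factor that activates Cdkn1a and urokinase, was the highest member in all 6 libraries. It stood at 23.1, 23.8 and 22.9 FPKM with PBS and at 80.8, 81.8 and 80.4 FPKM with nanoparticles. The libraries within each group lay close together and the groups were far apart. The rise was 3.48-fold (log2 fold change 1.76 ± 0.029, where ± is the standard error here and in later fold changes; adjusted p = 4.56e-11, limma).

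Klf5, a pro-proliferative factor of basal epithelia that counters KLF4 at shared sites, stood at 16.4, 16.7 and 16.7 FPKM with PBS. With nanoparticles it stood at 47.8, 48.9 and 48.8 FPKM, so it rose in the same libraries as Klf4. The rise was 2.92-fold (log2 fold change 1.49 ± 0.031, adjusted p = 1.63e-10, limma). The 95% confidence interval of the Klf5 change, 1.42 to 1.56, lies below that of Klf4, 1.99 to 2.22. The difference between the 2 changes was not itself tested.

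Klf2, best known from endothelium and quiescent T cells, was low in all libraries: 2.95, 2.8 and 3.36 FPKM with PBS and 1.74, 2.53 and 2.6 FPKM with nanoparticles. The groups did not overlap, but the lowest PBS library and the highest nanoparticle library were close together, and nanoparticle library 1 lay below the other two. The log2 fold change was -0.30 (standard error 0.11, adjusted p = 0.0262, limma), the weakest call of the family. It was lost without PBS library 1 (adjusted p = 0.0513), without PBS library 3 (adjusted p = 0.0899) or without nanoparticle library 1 (log2 fold change -0.18, adjusted p = 0.0692), in the same limma fit.

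Klf7, a close relative of Klf6 known from neurons and adipocytes, stood at 3.49, 3.73 and 3.44 FPKM with PBS and at 2.44, 1.96 and 2.07 FPKM with nanoparticles. Each nanoparticle library was below each PBS library, at 60.7% of the PBS level on average. The log2 fold change was -0.53 with a standard error of 0.075 (adjusted p = 8.73e-05, limma). Its exons share 3196 bases with Gm26649 on the opposite strand, and the sources used here do not state the strand setting, so reads of this gene and its antisense partner cannot be told apart.

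The promoters of Klf4 and Klf6, the activators with the largest rises, and of Klf2, which fell, are shown to let the bases before their start sites be compared. They come from RefSeq (GRCm38.p6), used here for 7 of the 10 genes: Klf2, Klf3, Klf4, Klf6, Klf7, Klf9 and Klf13. Only bases before both the RefSeq and the GENCODE start are printed. Capitals mark CACCC boxes, the GC box GGGCGG and the CCAAT box, each on either strand, and the MEF2 element.
Klf4 upstream, GRCm38.p6 chr4:55532476-55532725, minus strand: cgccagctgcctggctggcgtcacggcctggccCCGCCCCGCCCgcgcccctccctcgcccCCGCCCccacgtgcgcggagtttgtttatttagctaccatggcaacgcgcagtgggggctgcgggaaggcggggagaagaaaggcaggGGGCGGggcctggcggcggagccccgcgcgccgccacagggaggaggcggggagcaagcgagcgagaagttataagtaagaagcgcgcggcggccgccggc
Klf6 upstream, GRCm38.p6 chr13:5861239-5861481, plus strand: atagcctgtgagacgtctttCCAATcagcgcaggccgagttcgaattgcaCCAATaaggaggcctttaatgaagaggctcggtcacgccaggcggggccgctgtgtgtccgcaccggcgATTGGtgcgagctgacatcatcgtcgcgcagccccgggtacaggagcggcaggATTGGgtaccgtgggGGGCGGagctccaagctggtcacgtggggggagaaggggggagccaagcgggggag
Klf2 upstream, GRCm38.p6 chr8:72318812-72319032, plus strand: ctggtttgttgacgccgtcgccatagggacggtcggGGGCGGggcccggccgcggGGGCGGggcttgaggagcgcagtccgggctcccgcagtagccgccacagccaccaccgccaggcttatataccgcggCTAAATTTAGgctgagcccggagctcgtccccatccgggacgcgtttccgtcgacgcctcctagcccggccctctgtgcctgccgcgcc

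Within the 250 bases before the RefSeq start, Klf4 held 4 matches to GGGCGG, the GC box of SP and KLF factors, and 0 to CACCC or CCAAT. Klf6 held 1 GGGCGG and 4 CCAAT, the motif of NF-Y, on both strands. Klf2 held 2 GGGCGG, 1 CACCC that falls after the printed stretch, and 1 MEF2 element 118 to 109 bases before the start. Of 32851 RefSeq windows of the same length, 32.7% held GGGCGG, 52% held CACCC, 33.8% held CCAAT and 0.508% held the MEF2 element. The CArG box of serum response factor was searched too: it was in 1.47% of all windows and in none of the 7 KLF windows. Neighbouring GGGCGG matches can share bases, as a pair does in Klf4, and such matches describe letters, not bound sites.

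Klf3, the CtBP-binding repressor of the set, stood at 20.1, 21.5 and 20.5 FPKM with PBS and at 16.8, 15.6 and 16 FPKM with nanoparticles. The groups were separate but close, with a mean of 77.9% of the PBS mean. The log2 fold change was -0.34 (standard error 0.043, adjusted p = 4.21e-05, limma), near the middle of the tested genes, of which 37.1% lay at or below it. Its exons share 404 bases with Gm20033 on the opposite strand. Its window of 250 bases held 6 GGGCGG and 5 CACCC matches, counts of 5 or more being reached by 1.93% and 0.667% of all windows, and it was 78.4% G or C against a median of 52.4% over all windows.

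Among the SIN3A-binding members 2 rose and 2 fell. Klf10, a repressor first described as induced by transforming growth factor β, stood at 11.9, 11.6 and 11.2 FPKM with PBS and at 30.8, 31.8 and 32.3 FPKM with nanoparticles. The groups were far apart, and the rise was 2.74-fold (log2 fold change 1.38 ± 0.039, adjusted p = 9.93e-10, limma). Klf16, a GC-box-binding repressor, stood at 7.03, 7.52 and 8.63 FPKM with PBS and at 14.9, 13.5 and 13.6 FPKM with nanoparticles. Its PBS libraries were more spread than those of Klf10, yet all nanoparticle libraries were higher (log2 fold change 0.79 ± 0.072, adjusted p = 3.58e-06, limma).

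Klf9, a glucocorticoid and thyroid hormone response gene, stood at 22.6, 22.5 and 22.7 FPKM with PBS and at 15.5, 15.1 and 15.2 FPKM with nanoparticles. These were among the tightest values in the family, and the fall to 67.6% of the PBS mean was larger than the spread. The log2 fold change was -0.54 with a standard error of 0.034 (adjusted p = 2.54e-07, limma). Klf13, a factor of T-cell chemokine and cardiac gene control, stood at 9.55, 9.22 and 9.94 FPKM with PBS and at 4.69, 5.2 and 4.91 FPKM with nanoparticles. Its highest nanoparticle library was well below its lowest PBS library (log2 fold change -0.83 ± 0.055, adjusted p = 2.97e-07, limma), and 18.4% of tested genes lay at or below this change.

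The bases before the starts of Klf9 and Klf13, the SIN3A-binding genes that fell, are marked in the same way.
Klf9 upstream, GRCm38.p6 chr19:23140976-23141225, plus strand: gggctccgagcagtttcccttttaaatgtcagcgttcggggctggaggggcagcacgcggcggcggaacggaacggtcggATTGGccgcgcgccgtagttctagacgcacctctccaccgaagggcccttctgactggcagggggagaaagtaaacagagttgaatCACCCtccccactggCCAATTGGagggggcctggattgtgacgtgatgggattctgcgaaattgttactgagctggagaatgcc
Klf13 upstream, GRCm38.p6 chr7:63938916-63939165, minus strand: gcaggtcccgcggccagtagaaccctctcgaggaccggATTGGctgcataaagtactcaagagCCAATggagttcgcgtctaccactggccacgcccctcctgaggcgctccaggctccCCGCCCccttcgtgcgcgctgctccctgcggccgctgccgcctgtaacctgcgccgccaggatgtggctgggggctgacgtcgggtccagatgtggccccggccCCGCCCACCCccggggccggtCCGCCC

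Klf9 held 1 CACCC, 3 CCAAT and 0 GGGCGG, with one CCAAT pair overlapping on opposite strands. Klf13 held 3 GGGCGG, 1 CACCC that shares bases with one of them, and 2 CCAAT. Over the 7 windows, CACCC was found in all 5 of the genes that fell (Klf2, Klf3, Klf7, Klf9 and Klf13) and in neither of the 2 that rose (Klf4 and Klf6). CACCC is in 52% of all windows, and this split was seen after the values and not tested. The split holds only for windows set by the RefSeq start. In Klf2 and Klf7 every CACCC match lies after the GENCODE start, inside the annotated gene. GGGCGG was found in 6 of the 7 windows, all but that of Klf9.

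**Figure D2:**
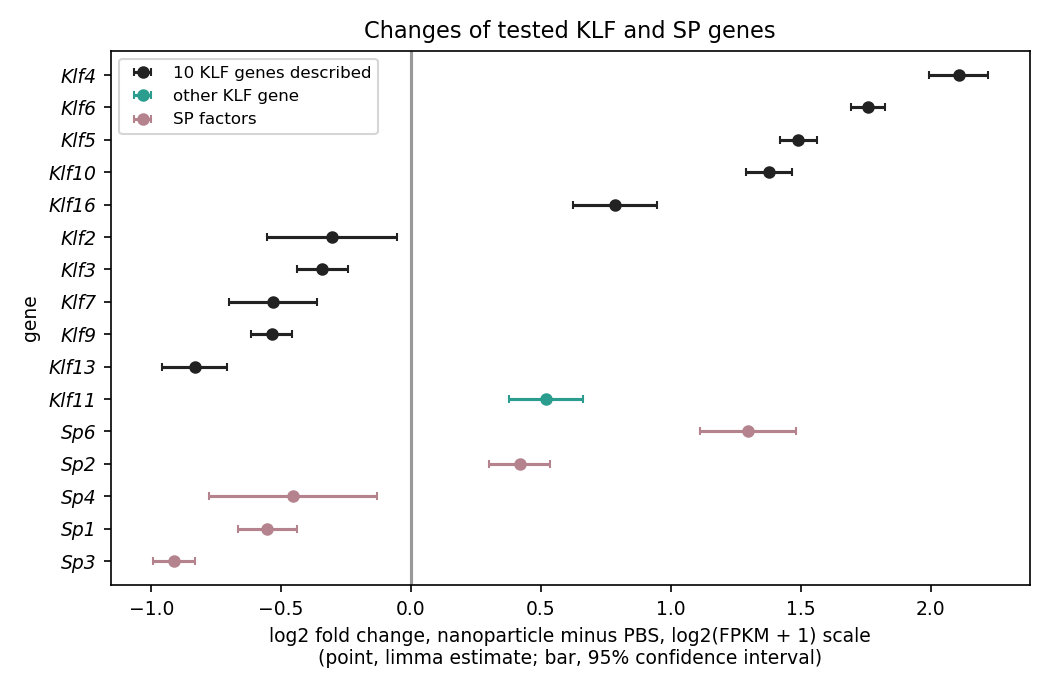
Log2 fold change, nanoparticle minus PBS on the log2(FPKM + 1) scale, with its 95% confidence interval from limma, for the 10 KLF genes, Klf11 and the 5 tested SP factors. The 5 KLF genes that rose run from 0.79 (Klf16) to 2.11 (Klf4), the 5 that fell from -0.83 (Klf13) to -0.30 (Klf2).

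Because FPKM is scaled by length, the 10 genes can be set side by side. Their summed level was 119.5, 121.9 and 121.9 FPKM in the PBS libraries and 229.2, 230.9 and 229.9 FPKM in the nanoparticle libraries, a ratio of means of 1.90 on the FPKM scale and 1.71 after rescaling each library to 1 common total (TPM). With PBS the order was Klf6, Klf9, Klf3, Klf5, Klf10, Klf13, Klf16, Klf7, Klf2 and Klf4, and no neighbours overlapped in their 3 libraries. With nanoparticles it became Klf6, Klf5, Klf10, Klf3, Klf9, Klf4, Klf16, Klf13, Klf2 and Klf7. There Klf4 and Klf16 overlapped, and so did Klf2 and Klf7.

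The share of the activator subgroup in the summed level was higher with nanoparticles, through Klf4, Klf5 and Klf6. Its 5 genes together held between 40.2% and 40.6% of the summed KLF level with PBS and between 63.9% and 64.8% with nanoparticles. Klf6 alone went from between 18.7% and 19.5% to between 35% and 35.4%, and Klf5 from 13.7% to between 20.9% and 21.2%. The activators Klf2 and Klf7 went the other way, from mean shares of 2.51% and 2.93% to 0.995% and 0.937%. The share of Klf3 fell from between 16.8% and 17.7% to between 6.76% and 7.32%, that of Klf9 from between 18.5% and 18.9% to between 6.56% and 6.76%, and that of the 4 SIN3A-binding genes together from between 41.8% and 43% to between 28.4% and 28.8%. Within that subgroup the share of Klf10 was higher, at 9.16% to 9.94% with PBS and 13.4% to 14% with nanoparticles, and Klf16 rose in level while its share did not separate the groups (5.88% to 7.08% with PBS, 5.84% to 6.52% with nanoparticles). These shares are descriptions of the libraries, with no test.

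**Figure D3:**
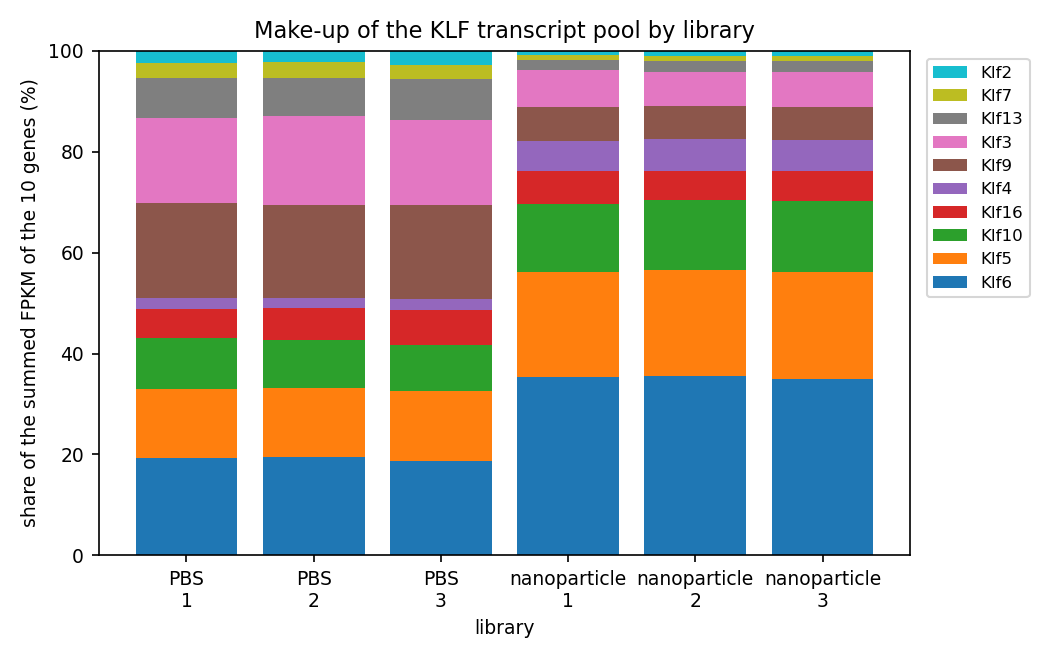
Share of each gene in the summed FPKM of the 10 KLF genes (%), 1 bar per library. Klf6, Klf5, Klf10 and Klf4 take up more of each nanoparticle bar than of any PBS bar, and Klf9, Klf3, Klf13, Klf7 and Klf2 take up less.

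Genomic span, the distance from gene start to gene end, moved with the change over all tested genes, and its part in the KLF values was not tested beyond the following fit. The median log2 fold change was 0.35 over 1198 genes of up to 5 kb and -1.10 over 1202 genes above 100 kb. The KLF genes that rose span 5.32 kb (Klf4), 8.91 kb (Klf6), 9.24 kb (Klf10), 10.2 kb (Klf16) and 16.3 kb (Klf5). Those that fell span 26.9 kb (Klf9), 29.5 kb (Klf3), 52.6 kb (Klf13) and 92.8 kb (Klf7), with the exception of Klf2, which is the shortest at 2.62 kb.

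With the linear trend of change on span and exonic length removed from every gene, Klf7 no longer passed (log2 fold change -0.022, adjusted p = 0.79, limma). Klf13 moved to -0.53 and Klf16 to 0.49, while Klf2 moved to a larger fall of -1.08 (adjusted p = 7.08e-06, limma). The centred straight line took 0.78 from Klf2, whereas the median change was 0.355 up to 5 kb and 0.333 from 5 to 10 kb. The size of the larger Klf2 fall thus depends on a line steeper than these medians. Values below for other short genes with this trend removed carry the same limit. Klf4 (1.59), Klf6 (1.43), Klf5 (1.38) and Klf10 (1.06) stayed higher, and Klf9 (-0.47) and Klf3 (-0.23) stayed lower.

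**Figure D4:**
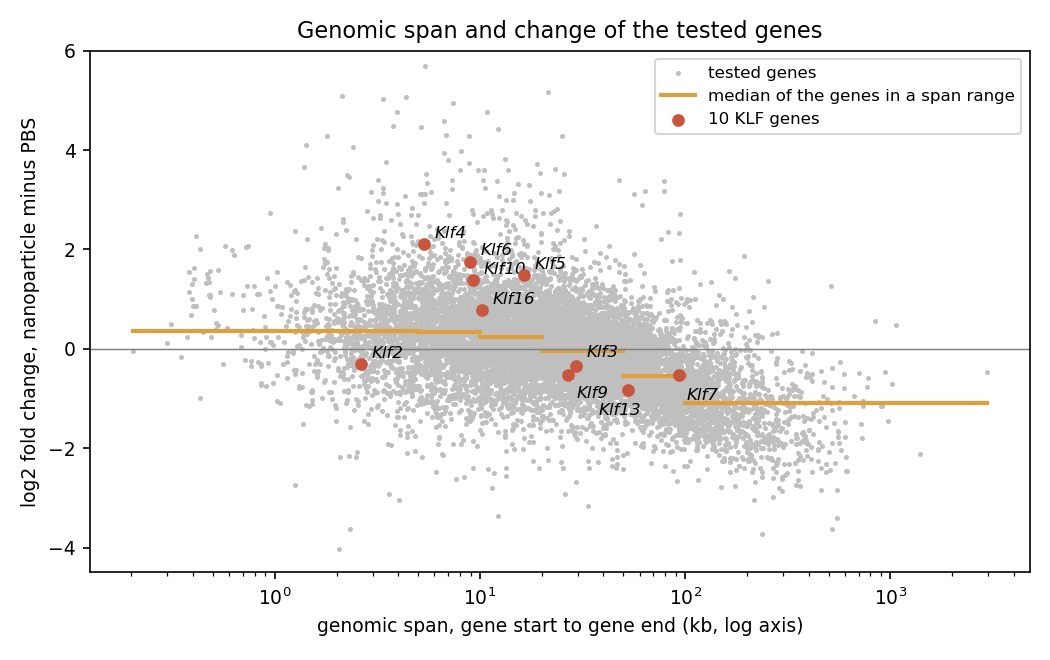
Log2 fold change, nanoparticle minus PBS, against genomic span (kb, log axis) for all tested genes (grey) and the 10 KLF genes (red), with the median of the genes in each of 6 span ranges (orange lines). Klf4, Klf6, Klf10, Klf5 and Klf16 lie above the median of their span range, Klf2, Klf3, Klf9 and Klf13 below it, and Klf7 at -0.53 beside a median of -0.54.

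In the GRCm38 annotation Klf4 lies at chromosome 4, 55527143 to 55532466, Klf6 at chromosome 13, 5861482 to 5870394, and Klf5 at chromosome 14, 99298691 to 99315036. Klf10 lies at chromosome 15, 38291463 to 38300706, Klf16 at chromosome 10, 80567124 to 80577321, and Klf9 at chromosome 19, 23141226 to 23168134. Klf13 lies at chromosome 7, 63886351 to 63938915, Klf3 at chromosome 5, 64803388 to 64832901, Klf7 at chromosome 1, 64029447 to 64122282, and Klf2 at chromosome 8, 72319033 to 72321656. The 10 genes thus sit on 10 chromosomes. Little identical coding sequence is shared: over the 45 pairs of coding sequences (GENCODE M21), the longest identical run had a median of 12 bases and a maximum of 26. The 3 longest runs are shown: that of Klf6 with Klf7, which moved in opposite directions, that of Klf5 with Klf9, which did so too, and that of Klf2 with Klf7, which both fell. They end at 79.5% or more of each coding sequence, toward the end that encodes the zinc fingers.
Klf6 and Klf7 shared run: gacaggtgtttctccaggtctgacca
Klf5 and Klf9 shared run: tcggatgagctgacccgccactac
Klf2 and Klf7 shared run: cacacaggtgagaagcctta

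The other 7 KLF genes were mostly near 0. Klf11, a SIN3A-binding relative of Klf10, was the 1 gene of these with enough signal to be tested: it stood at 2.56, 2.61 and 2.56 FPKM with PBS and at 3.98, 4.45 and 3.96 FPKM with nanoparticles, and it rose (log2 fold change 0.52 ± 0.063, adjusted p = 3.12e-05, limma). Its direction was that of Klf10. Klf8, Klf12, Klf14 and Klf17 were listed at 0 in every PBS library and at 0.0201 to 0.168 FPKM in the nanoparticle libraries. That pattern was common: 2632 genes were at 0 in all PBS libraries and above 0 in all nanoparticle libraries, and 9 genes showed the reverse. Klf1, the erythroid factor, reached at most 0.375 FPKM and Klf15 at most 0.0566 FPKM.

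Of 5 tested SP factors, which bind the same GC boxes, 2 rose and 3 fell, with a median log2 fold change of -0.45. Over all tested genes, 40.5% were called higher and 46% lower. This is the background for these counts and for those of the lists that follow, none of which was tested as a set. Sp3 and Sp1, the broadly expressed members, fell from 45.2 ± 1.34 to 23.5 ± 0.664 FPKM and from 16.6 ± 0.679 to 11 ± 0.558 FPKM, each given as mean ± SD over 3 libraries, here and in what follows (log2 fold changes -0.91 and -0.55). Sp4 fell by 0.45 on the log2 scale, a call lost without nanoparticle library 2 (adjusted p = 0.0543, limma) and once the trend on span and length was taken out (adjusted p = 0.66, limma). Sp6, an epithelial and tooth factor, rose from 1.21 ± 0.186 to 4.41 ± 0.302 FPKM, and Sp2 rose by 0.42 on the log2 scale.

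Of 13 tested KLF cofactors, 4 rose, 8 fell and 1 did not pass, with a median log2 fold change of -0.28. Sin3a, the corepressor of the KLF9 and KLF10 subgroup, fell from 15.5 ± 0.486 to 7.2 ± 0.143 FPKM, and the acetyltransferases Ep300 and Kat2b fell from 10.4 ± 0.174 to 5.07 ± 0.172 FPKM and from 20.5 ± 0.111 to 10.6 ± 0.271 FPKM. Named after their values were seen, the CtBP genes differed in size: Ctbp2 fell from 19.4 ± 1.08 to 6.36 ± 0.933 FPKM and Ctbp1 from 58.5 ± 2.75 to 49.7 ± 0.298 FPKM, while Hdac1, a deacetylase of the SIN3A complex, rose from 46.3 ± 2.3 to 75.2 ± 1.92 FPKM. Ctbp2 spans 136.8 kb and Ctbp1 27.3 kb, and the log2 fold change of Ctbp2 went from -1.47 to -0.83 with the trend on span and length taken out. The same removal moved Sin3a from -1.01 to -0.68, Ep300 from -0.91 to -0.51 and Kat2b from -0.89 to -0.35. Hdac1 went from 0.69 to 0.74.

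Of 16 tested genes reported upstream of KLF transcription, 5 rose, 9 fell and 2 did not pass, with a median of -0.41. The shares over all tested genes were 40.5% higher and 46% lower. Egr1, an early response factor, rose 28.7-fold, from 3.23 ± 0.124 to 92.6 ± 3.73 FPKM. Mef2a, which encodes a MEF2 factor, fell from 17.5 ± 0.684 to 4.44 ± 0.223 FPKM, and Mef2d from 20 ± 0.225 to 15.8 ± 0.684 FPKM. Tgfbr1, a receptor upstream of Klf10, fell from 54 ± 0.813 to 13.6 ± 0.864 FPKM. Tgfb1, the ligand gene, rose from 41.2 ± 1.49 to 57.7 ± 1.2 FPKM. Tgfbr2 and Smad4 fell, and Smad2 and Smad3 did not pass. Mef2d, Tgfb1, Tgfbr2 and the Smad genes were named after their values were seen. The part of any of these genes in the KLF changes was not tested. Of genes named after their values were seen, Map2k5, the kinase that activates ERK5, fell from 13 ± 0.482 to 3.79 ± 0.347 FPKM, Mapk7, which encodes ERK5, had a log2 fold change of 0.41 that turned to -0.078 once that trend was taken out, and Nr3c1, the glucocorticoid receptor upstream of Klf9, fell from 15.1 ± 0.335 to 5.47 ± 0.28 FPKM. At -0.078, Mapk7 did not pass (adjusted p = 0.159, limma), and the same removal moved Mef2a from -1.77 to -1.10 and Map2k5 from -1.55 to -0.77. It moved Nr3c1 from -1.31 to -0.75 and Tgfbr1 from -1.91 to -1.55.

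Of 8 ubiquitin ligases and deubiquitinases that act on KLF proteins, 3 rose and 5 fell, with a median of -0.81. Wwp1, a ligase for KLF5 and KLF2, fell from 15.2 ± 0.594 to 3.98 ± 0.112 FPKM and Fbxo32, a ligase for KLF4, from 9.64 ± 0.11 to 2.82 ± 0.115 FPKM. Siah1b rose from 4.64 ± 0.636 to 19.6 ± 0.442 FPKM; its close copy Siah1a fell by 0.73 on the log2 scale, and reads may be split between them, so both values are uncertain. Fbxw7, a second ligase for KLF5 and KLF2 named after its values were seen, had a log2 fold change of -1.02, and of -0.32 with the trend on span and length taken out. The same removal moved Wwp1 from -1.70 to -1.17 and Fbxo32 from -1.48 to -1.28. KLF protein levels were not measured.

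Of 21 tested genes reported as KLF targets, 12 rose, 7 fell and 2 did not pass, with a median of 0.41. Cdkn1a, the p21 gene activated by KLF4 and KLF6, rose from 5.37 ± 0.19 to 76.3 ± 3.29 FPKM, and Plau, the urokinase gene activated by KLF6, from 105 ± 0.862 to 353 ± 6.87 FPKM. Cdkn1a does not stand for KLF4 targets as a set. Genes listed next without a named KLF can be KLF4 targets too, whether they rose or fell. Listed genes named after their values were seen include Ccnb1 (46.2 to 117 FPKM), Ccne1 (2.19 to 9.76 FPKM) and Odc1 (372 to 733 FPKM), which rose. Cdkn1b, named in the same way, fell from 34.3 to 18.6 FPKM. Pcna, a replication clamp, rose from 187 ± 4.42 to 426 ± 6.55 FPKM. Other genes reported as activated by KLF6 fell: Igf1r, a growth factor receptor with the largest fall of the list, from 13.1 ± 0.168 to 1.86 ± 0.0946 FPKM, and Eng, a co-receptor of transforming growth factor β, from 64 ± 1.46 to 49.4 ± 0.815 FPKM, both named after their values were seen. With the trend on span and length taken out, the log2 fold change of Igf1r went from -2.30 to -1.39, that of Pcna from 1.18 to 0.57 and that of Fgfbp1 from 1.47 to 0.73. Of genes named after their values were seen, Fgfbp1, a KLF5 target, rose by 1.47, Smad7, reported as repressed by KLF10, rose by 0.67, and Lgals3, reported as repressed by KLF3, rose by 0.50, while Ccnd1, activated by KLF5, fell by 0.25 on the log2 scale. The endothelial KLF2 targets Nos3 and Thbd reached at most 0.135 FPKM and 0.0162 FPKM in any library.

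**Figure D5:**
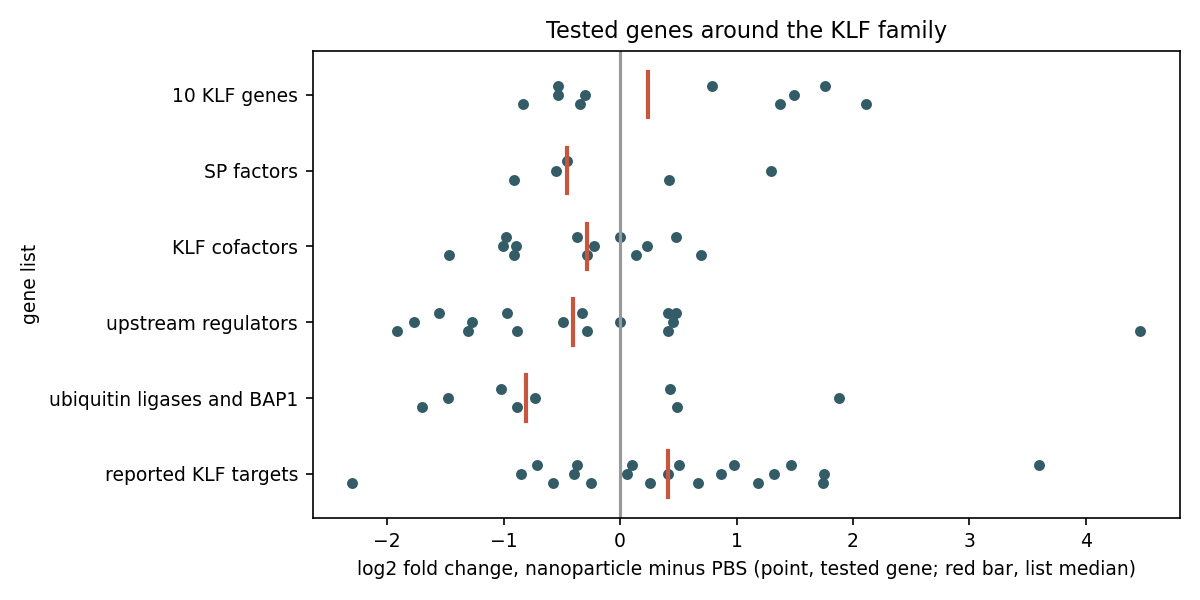
Log2 fold change, nanoparticle minus PBS, of each tested gene (points) and the list median (red bars) for the 10 KLF genes, SP factors, KLF cofactors, upstream regulators, ubiquitin ligases with BAP1, and reported KLF targets. List medians run from -0.81 (ubiquitin ligases and BAP1) to 0.41 (reported targets), and every list holds genes on both sides of 0.

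Of 7 epithelial markers tested, 5 rose (Krt8, Krt18, Krt7, Krt19 and Cdh1), Ocln fell and Cldn4 did not pass. Over all tested genes, 40.5% were called higher and 46% lower, and the markers were not tested as a set. Ocln, a tight junction gene, fell from 13.6 ± 0.992 to 5.76 ± 0.488 FPKM. Krt18 rose by 0.41 on the log2 scale, a value that turned to -0.23 with the trend on span and length taken out, and the call of Cdh1 was lost on the TPM scale (adjusted p = 0.0547, limma). Removal of that trend moved Krt8 from 0.67 to 0.28 and Cdh1 from 0.25 to 0.64. Markers of other cells that express KLF2 and KLF4 strongly were examined too. Among 8 endothelial markers, 7 never reached 1 FPKM. The list summed to 8.78 to 8.95 FPKM with PBS and 3.54 to 3.6 FPKM with nanoparticles. Cdh5 fell from 8.42 ± 0.0879 to 1.54 ± 0.141 FPKM, whereas each of the 7 low markers was higher in every nanoparticle library than in any PBS library. Tie1 went from 0.323 to 0.850 FPKM and Pecam1 from 0.0503 to 0.362 FPKM on average, and Kdr and Emcn from 0 in all PBS libraries to between 0.0632 and 0.131 FPKM and between 0.128 and 0.224 FPKM. These 7 markers were too low to be tested, and no share was computed for low genes higher in every nanoparticle library. Among tested genes, which exclude them, groups did not overlap for 87.2%, in either direction. A rise from 0 was common and does not set Kdr and Emcn apart. Over all genes, 2632 were at 0 in all PBS libraries and above 0 in all nanoparticle libraries, against 9 in reverse. Among 12 markers of macrophages and myeloid cells, 8 never reached 1 FPKM, 3 rose (Cd68, Mpeg1 and Csf1r, the last 2 under 1 FPKM in every PBS library, so that the filter fixed their direction) and 1 fell. The log2 fold change of Cd68 was 1.47, and 0.58 with the trend on span and length taken out. The sum of the 12 markers was 23 to 26.7 FPKM with PBS and 44.4 to 49.9 FPKM with nanoparticles. Ptprc, the pan-leukocyte marker, went from 0 in all PBS libraries to between 0.389 and 0.612 FPKM, and is among those 2632 genes. Of 10 lymphocyte markers 9 stayed under 1 FPKM (sum 1.19 to 1.29 and 2.46 to 2.94 FPKM), Lck rising by 0.41 on the log2 scale, and Nkg7 was at 0 in all 6 libraries. Of 10 fibroblast markers 8 stayed under 1 FPKM (sum 32.9 to 33.1 and 8.04 to 10.1 FPKM), and Pdgfra and Pdgfrb fell by 1.90 and 1.74 on the log2 scale. The part of such cells in the KLF values was not tested.

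Genes with a pattern over the 6 libraries like that of Klf4, by the root mean square difference of PBS-centred log2(FPKM + 1) with clone names left out, included Ly6e (0.032) and Gtf2f1 (0.034), the nearest of all. Ly6e, a membrane-anchored surface protein gene, went from 16.7 to 74.5 FPKM, and Gtf2f1, a general transcription factor subunit, from 56.3 to 242.8 FPKM. Genes with a pattern like that of Klf13 included Xrcc3 (0.026), a recombination repair gene, and Ccdc191 (0.031). They had log2 fold changes of -0.86 and -0.82. With 2 groups, likeness of this kind is mainly an equal size of change.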

How the data were processed

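RNA of 6 libraries was sequenced after mRNA enrichment, per the labels' protocols. The authors deposited 1 table of FPKM values. The header names no unit, which was inferred from non-whole values summing to 421544 to 472870 per library. STAR and featureCounts with builds GRCm38 and mm10 are named, per the submitters' processing notes, with no version or role. Nothing used here states the program that made the values, the strand setting or the depth. Features without a gene identifier (701, at most 0.67% of the summed FPKM of a library) were left out.

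Values were transformed to log2(FPKM + 1), which understates the change of low genes. The filter kept genes that reached 1 FPKM in 3 or more libraries, which were fitted with limma 3.58.1 in R 4.3.3 (eBayes with trend and robust settings, statmod 1.5.0), nanoparticle minus PBS, two-sided, with Benjamini-Hochberg adjustment over the 10863 tested genes. Separate cultures are not stated, so the p-values reflect only the spread among these libraries, which may be technical. Spans came from GENCODE M21 (GRCm38). Tables and plots used Python 3.11.15, pandas 2.3.3, numpy 2.4.6 and matplotlib 3.10.9.

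The members and lists were chosen with earlier results of these data known. Named were all members, all tested KLF and SP genes, the 3 genes of each other list with the smallest adjusted p, and the 3 genes most like the members with the largest rise and fall. Some genes that this rule names are not reported here. The alternatives were a pseudocount of 0.1, no filter, TPM scale, median-of-ratios scaling, a replicate block, a test against a 1.5-fold change, removal of the span and length trend, and each library left out.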

Additional observations from a re-analysis of the deposited data

How the results depend on the processing

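Of the 10 KLF genes, 6 (Klf4, Klf5, Klf6, Klf10, Klf13 and Klf16) kept their direction and call under all 13 alternatives, and no KLF gene changed direction. Against a 1.5-fold change, 5 KLF genes were called higher and 1 lower (Klf13), with 1853 genes higher and 2341 lower in all. With no filter on low values, 8445 genes were called higher and 5227 lower, of 20124 tested. The TPM scale lowered the median change of all genes by 0.15 (log2) and left every KLF call in place, with Klf2 at -0.49 and Klf3 at -0.50. With the span and length trend removed, Krt18 turned from 0.41 to -0.23, still called, and Mapk7 from 0.41 to -0.078, no longer called (adjusted p = 2.42e-05 and 0.159, limma). The line took 0.65 from Krt18 and 0.49 from Mapk7, beside median changes of 0.355 up to 5 kb and 0.333 from 5 to 10 kb. The cause was not tested. With a replicate block, 5 KLF genes were higher and 5 lower, and 4389 and 4982 genes in all. The block changed no call of the 59 genes followed through the alternatives. Mef2d, Tgfb1, Tgfbr2, Smad2, Smad3, Smad4, Ccnb1, Ccne1, Odc1, Cdkn1b, Krt7, Krt19 and Cldn4, named above, were not among them. The deviations of same-numbered libraries had correlations of only -0.014, -0.043 and 0.041, so no shared deviation was seen. This cannot settle whether same-numbered samples were handled together, which the labels do not state. Mpeg1 and Csf1r could not be fitted once a nanoparticle library was left out. No depth is known, so no counting error is given.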
